A study of Homo sapiens with 6 samples.

Results

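The genes described here encode the core of the death receptor pathway of cell death. They are the adaptors FADD and TRADD, the kinase RIPK1, caspase-8 (CASP8) and its inactive homologue c-FLIP (CFLAR), the receptors FAS, TNFRSF10A and TNFRSF10B, and the caspase inhibitor XIAP. The members were chosen by gene symbol for their roles in this pathway, with earlier results of these data known. All 9 were found among the 27420 genes of the deposited expression table. A673 and SKNMC, the cells used, are established Ewing sarcoma lines, a bone and soft tissue cancer driven by the EWS-FLI1 fusion protein. For 6 h, each line was kept either in the vehicle DMSO or in THZ1 at a dose of 50 nM or 200 nM. THZ1 binds covalently to CDK7, a kinase that phosphorylates the C-terminal domain of RNA polymerase II, and the question was which transcripts change when this kinase is inhibited. There was 1 library for each of the 6 conditions, so no difference could be set against a replicate error, no p-value is given, and differences between libraries of any origin are included in every value below.

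In the death receptor pathway, ligands of the TNF family bind receptors that carry an intracellular death domain. FAS and the TRAIL receptors TNFRSF10A (DR4) and TNFRSF10B (DR5) recruit FADD, which brings procaspase-8 molecules together so that they activate each other. c-FLIP enters the same complex without protease activity of its own and restrains caspase-8, TRADD and RIPK1 serve the TNF receptor TNFRSF1A, and XIAP blocks the caspases that act further downstream.

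Values are FPKM, fragment numbers divided by transcript length and by the size of the library, so they are shares of a library: if many transcripts decline, the FPKM of the others goes up even where nothing else happened to them. Log2 fold changes are of FPKM with 1 added, which understates the change of low genes. Genes above 1 FPKM in the reference library of a comparison are called active, and a change of at least 2-fold on that scale is counted as a change. The 6 columns sum to between 451872 and 462997 FPKM, and the number of reads behind them is unknown. All 8 markers of Ewing sarcoma looked at, CD99 and NKX2-2 among them, were above 1 FPKM in each library. Of 10 markers of blood, epithelial, endothelial and muscle cells, 9 were matched, and their summed level was 0.0430 to 0.138 FPKM in A673 and 8.42 to 14.0 FPKM in SKNMC. The level in SKNMC came almost entirely from PTPRC, a leukocyte phosphatase, at 10.2 FPKM with DMSO, 7.90 at 50 nM and 13.1 at 200 nM, while CD3E was at 0 in all SKNMC libraries, and the part of this in the results was not tested.

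The regions before the starts of FADD, CASP8 and CFLAR are shown because these 3 genes, whose products meet in 1 complex, changed to very unlike degrees. Each is the 250 bases upstream of the most upstream RefSeq start on GRCh38.p14 (chr11:70203046-70203295 for FADD, chr2:201233213-201233462 for CASP8 and chr2:201118466-201118715 for CFLAR, all on the plus strand), and capitals mark GC boxes, GGGCGG or CCGCCC.
FADD: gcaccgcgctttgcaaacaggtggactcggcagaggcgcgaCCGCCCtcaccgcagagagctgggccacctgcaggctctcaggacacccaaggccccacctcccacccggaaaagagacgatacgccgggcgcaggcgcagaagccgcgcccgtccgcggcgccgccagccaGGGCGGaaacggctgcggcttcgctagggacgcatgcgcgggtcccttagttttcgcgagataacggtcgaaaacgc
CASP8: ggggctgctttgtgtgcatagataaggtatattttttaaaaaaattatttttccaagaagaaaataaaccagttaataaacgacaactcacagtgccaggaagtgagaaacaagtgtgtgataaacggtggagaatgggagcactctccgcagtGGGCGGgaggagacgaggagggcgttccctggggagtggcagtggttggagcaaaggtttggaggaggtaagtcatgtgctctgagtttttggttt
CFLAR: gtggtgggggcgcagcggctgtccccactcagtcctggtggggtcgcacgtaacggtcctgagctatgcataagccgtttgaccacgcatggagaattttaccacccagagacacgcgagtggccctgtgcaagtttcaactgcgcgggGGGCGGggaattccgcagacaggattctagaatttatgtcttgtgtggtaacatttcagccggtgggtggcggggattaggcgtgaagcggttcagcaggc
The FADD sequence holds 32 CpG dinucleotides, more than 90.5% of the 35116 promoters in the same table, and 68.8% of its bases are G or C. The CFLAR sequence holds 17 CpG and the CASP8 sequence 6, against a median of 11 over all promoters. FADD has 2 GC boxes, and CASP8 and CFLAR 1 each, a motif found on either strand in 42.6% of all promoters. None of the 3 holds a TATA box (TATAAA, 10.7% of promoters), a CCAAT box (CCAAT, 32.0%) or a tandem GGAA repeat of the kind bound by EWS-FLI1 (GGAAGGAA, 3.06%), both strands counted. These are descriptions of letters in 1 window, and CASP8 and CFLAR have further RefSeq starts. Windows at the further CFLAR starts held 0, 0 and 22 CpG. Those at the further CASP8 starts held 5 each, and 1 of them had a TATA box and 2 CCAAT boxes. Of the other members, RIPK1 windows held 14, 28 and 29 CpG, FAS windows 11, 14 and 19, and XIAP windows 4, 12 and 23. A TATA box and a CCAAT box were found in 1 RIPK1 window, and a tandem GGAA repeat in 1 FAS window. The XIAP windows held none of these. A relation of these letters to the changes was not tested. Promoter sequences were matched for 6 of the members, and TRADD, TNFRSF10A and TNFRSF10B were not among them.

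With DMSO, TNFRSF10B, the receptor DR5, was the most abundant of the 9 transcripts in both lines, at 58.7 FPKM in A673 and 40.5 FPKM in SKNMC. In A673 it was followed by FADD (27.4 FPKM), CFLAR (21.8), XIAP (20.9), FAS (16.1), CASP8 (12.6), RIPK1 (7.29), TNFRSF10A (6.81) and TRADD (5.48). In SKNMC the order was CASP8 (22.9 FPKM), FADD (19.6), XIAP (16.6), CFLAR (15.7), RIPK1 (8.32), FAS (6.85), TRADD (4.98) and TNFRSF10A (1.83). With 1 library each, neighbours in these orders cannot be told apart beyond the spread between cultures. All 9 were active in both lines, and the median active gene stood at 14.1 FPKM in A673 and 13.5 FPKM in SKNMC.

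Between the untreated lines, 2 of the 9 members were at least 2-fold higher in A673 and none was at least 2-fold lower, against 8.42% and 15.0% of all active genes. These were the receptors TNFRSF10A, 3.72 times as high in A673, and FAS, 2.35 times as high. CASP8 differed in the other direction and was 1.81 times as high in SKNMC. The remaining 6 members lay between 0.876 and 1.45 times the SKNMC level in A673.

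**Figure D1:**
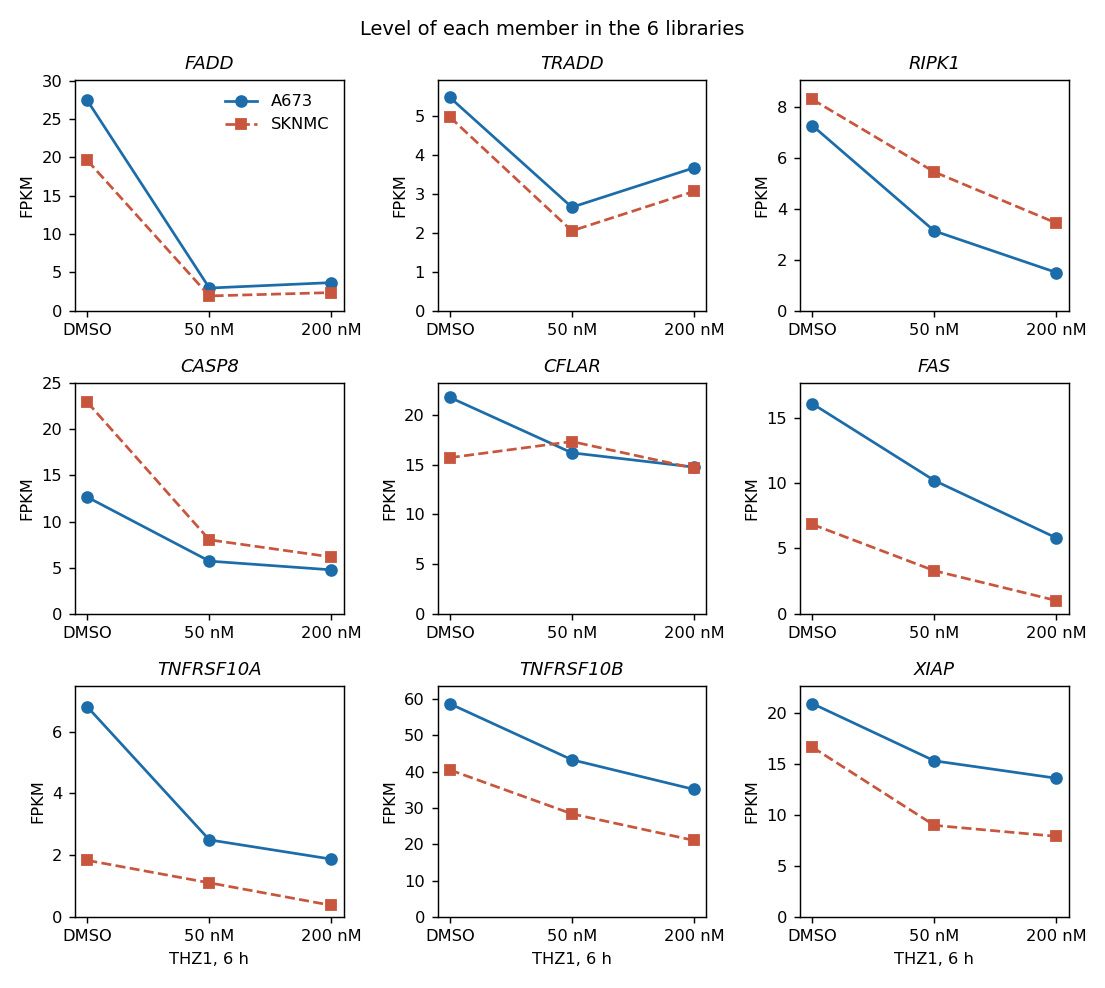
FPKM (y axis, from 0, with its own range in each panel) of the 9 genes in the 6 libraries (x axis), with A673 as circles and SKNMC as squares, 1 library a point. FADD drops to under 4 FPKM at both doses in both lines, while CFLAR stays between 14.7 and 21.8 FPKM.

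FADD, the adaptor shared by FAS and the TRAIL receptors, was the member with the largest decrease in all 4 comparisons of THZ1 with DMSO. In such bulk libraries, fewer expressing cells and less RNA per cell cannot be told apart. A673 cells had 27.4 FPKM of FADD with DMSO, 2.94 with the low dose and 3.65 with the high dose. The FADD values of SKNMC cells, in the same order, were 19.6, 1.91 and 2.35 FPKM. The level at 50 nM was thus 10.7% of the DMSO level in A673 and 9.77% in SKNMC, and at 200 nM it was 13.3% and 12.0%. The log2 fold changes of FADD were -2.85 and -2.61 for A673 and -2.82 and -2.62 for SKNMC, with the low dose given first here and in the pairs that follow.

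Few active genes had a lower fold change than FADD at the low dose. From the lowest upwards, FADD was at rank 9 of 11077 active genes in A673 and at rank 10 of 11896 in SKNMC at 50 nM, and at ranks 103 and 75 at 200 nM. The ranks depend on the value added to FPKM, because genes near 0 FPKM drop further when less is added. With nothing added, a comparison chosen after the values were seen, the FADD ranks were 86 (A673) and 64 (SKNMC) for the low dose and 421 and 279 for the high dose, which puts 3.79% and 2.34% of active genes below FADD at the high dose. The gene lies at chr11:70049268-70053496 (hg19, plus strand), spans 4.23 kb with 2 exons and overlaps no other listed gene. The nearest active genes on either side did not share the size of its decrease. PPFIA1, 63.3 kb downstream, had log2 fold changes of -0.28 and -1.07 for A673 and -0.23 and -0.66 for SKNMC. ORAOV1, 559 kb upstream, had -1.07 and -0.78 for A673 and -1.02 and -0.81 for SKNMC. CTTN, the next active gene downstream, which encodes an actin-binding protein, lay between -0.17 and 0.022 in these comparisons. CCND1, the next active gene upstream at 580 kb, had -0.62 and -0.49 for A673 and -0.91 and -0.87 for SKNMC.

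The 5 genes whose 4 log2 fold changes against DMSO lay closest to those of FADD, among 10567 others active in both lines, were C1orf131, TFAP4, PHLDA3, PRR5L and DDIT3. Their Euclidean distances were 0.30 for C1orf131, 0.46 for TFAP4, 0.46 for PHLDA3, 0.47 for PRR5L and 0.48 for DDIT3 on the log2 scale. DDIT3 encodes the stress transcription factor CHOP, and its level in A673 was 13.7 FPKM with DMSO, 0.915 with the low dose and 0.969 with the high dose. Likeness was measured over 6 libraries, in which both doses of a line share the DMSO library. No other member was close to FADD in this measure, and the nearest, CASP8, was at a distance of 2.82 and rank 917.

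The other adaptor, TRADD, which links TNFRSF1A to RIPK1, was lower by a smaller amount. TRADD lies at chr16:67188082-67194201 (hg19, as are the positions that follow, minus strand) with 5 exons. A673 cells had 5.48, 2.66 and 3.67 FPKM of TRADD and SKNMC cells 4.98, 2.05 and 3.06 FPKM, with DMSO, the low dose and the high dose. Its log2 fold changes were -0.83 and -0.47 in A673 and -0.97 and -0.56 in SKNMC, so with 1 added to FPKM it did not pass 2-fold at either dose. The call at 50 nM rests on that value, since FPKM itself was 2.06-fold lower in A673 and 2.43-fold lower in SKNMC. At 200 nM it was 1.49-fold and 1.62-fold lower in FPKM, and its log2 fold change was close to the median of all active genes. The first 369 bases of TRADD are shared with FBXL8 on the opposite strand. The sources used here do not say if fragments were assigned by strand. FBXL8 changed by no more than 0.12 on the log2 scale in any of these 4 comparisons.

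RIPK1 (chr6:3064224-3115421, plus strand), the kinase that acts at TNF receptors in both survival and death signalling, was lower with each increase of dose in both lines. A673 cells had 7.29, 3.14 and 1.5 FPKM of RIPK1 and SKNMC cells 8.32, 5.46 and 3.45 FPKM, with DMSO, the low dose and the high dose. At 200 nM it was at 20.6% of DMSO in A673 and 41.5% in SKNMC. The log2 fold changes were -1.0 and -1.73 in A673 and -0.53 and -1.07 in SKNMC.

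CASP8 (chr2:202098165-202152434) and CFLAR (chr2:201980826-202041410) lie 56.8 kb apart, both on the plus strand, and their transcripts differed in response. CASP8, the initiator protease of the pathway, was at 12.6 FPKM with DMSO, 5.71 with the low dose and 4.76 with the high dose in A673, and at 22.9, 8.02 and 6.15 FPKM in SKNMC. Its level was at least 2-fold lower in all 4 comparisons, with log2 fold changes of -1.03 and -1.25 in A673 and -1.41 and -1.74 in SKNMC. CFLAR, its inhibitor, was at 21.8, 16.2 and 14.8 FPKM in A673 and at 15.7, 17.4 and 14.7 FPKM in SKNMC, and passed 2-fold in none. The log2 fold changes of CFLAR were -0.41 and -0.53 in A673 and 0.13 and -0.094 in SKNMC. In SKNMC the CFLAR values lay above those of 81.5% of active genes at 50 nM and 75.9% at 200 nM, and in A673 above 41.4% and 43.5%. CFLAR contains a lincRNA of 583 bases, AC007283.5, on its own strand, which was at no more than 1.43 FPKM in any library. With DMSO, the low dose and the high dose, this lincRNA was at 1.18, 0.990 and 0.350 FPKM in A673. The SKNMC values were 1.43, 0.0151 and 0.874 FPKM.

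The ratio of the 2 transcripts within a library does not depend on how libraries are scaled. CFLAR to CASP8 was 1.72, 2.84 and 3.11 in A673 and 0.685, 2.16 and 2.38 in SKNMC, with DMSO, the low dose and the high dose. CASP8 was thus the more abundant of the pair only in the SKNMC library with DMSO, among these 6 libraries. Relative to DMSO the ratio was 1.65 and 1.8 times as high in A673 and 3.16 and 3.48 times as high in SKNMC.

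Of the 3 receptors, FAS (chr10:90750413-90775542, plus strand), the receptor of FAS ligand, differed most between the doses. It was at 16.1 FPKM with DMSO, 10.2 with the low dose and 5.81 with the high dose in A673, and at 6.85, 3.29 and 1.01 FPKM in SKNMC. The SKNMC level at 200 nM was 14.7% of DMSO and 30.5% of the level at 50 nM. The log2 fold changes were -0.61 and -1.33 in A673 and -0.87 and -1.97 in SKNMC, the last becoming -2.77 with nothing added to FPKM. The start of FAS shares 735 bases with ACTA2 on the opposite strand, a gene at 32.7 to 34 FPKM in the A673 libraries and 2.61 to 4.69 FPKM in the SKNMC libraries.

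The pair of TRAIL receptors, TNFRSF10A (chr8:23047964-23082639) and TNFRSF10B (chr8:22877645-22926692), both on the minus strand, had unlike levels and changes. TNFRSF10A was at 6.81 FPKM with DMSO, 2.49 with the low dose and 1.87 with the high dose in A673, and at 1.83, 1.10 and 0.372 FPKM in SKNMC, where it was near the limit for active genes. Its log2 fold changes were -1.16 and -1.44 in A673 and -0.43 and -1.04 in SKNMC. At such low levels the added value matters, and the last of these became -2.03 with 0.1 added and -2.30 with nothing added, a 4.92-fold lower FPKM. TNFRSF10B was at 58.7, 43.3 and 35.1 FPKM in A673 and at 40.5, 28.4 and 21.1 FPKM in SKNMC, and its log2 fold changes were -0.43 and -0.73 in A673 and -0.50 and -0.91 in SKNMC. TNFRSF10B was therefore lower at each step of dose but passed 2-fold nowhere, and it was the most abundant member in all 6 libraries. The ratio of TNFRSF10B to TNFRSF10A was 8.63, 17.4 and 18.8 in A673 and 22.1, 25.8 and 56.7 in SKNMC, in the order DMSO, 50 nM and 200 nM. The span of TNFRSF10B shares 68 bases with RHOBTB2 on the opposite strand. RHOBTB2 had log2 fold changes of -1.20 and -1.11 in A673 and -1.49 and -1.81 in SKNMC. The part of this overlap in the TNFRSF10B values was not tested.

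XIAP (chrX:122993573-123047829, plus strand), which binds and inhibits caspases that act after caspase-8, was at 20.9 FPKM with DMSO, 15.3 with the low dose and 13.6 with the high dose in A673, and at 16.6, 8.97 and 7.89 FPKM in SKNMC. The log2 fold changes were -0.43 and -0.59 in A673 and -0.82 and -0.99 in SKNMC, none of which reached 2-fold with 1 added to FPKM. In FPKM itself XIAP was 2.11-fold lower at 200 nM in SKNMC, and under ribosomal protein scaling its log2 fold change there was -1.52.

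**Figure D2:**
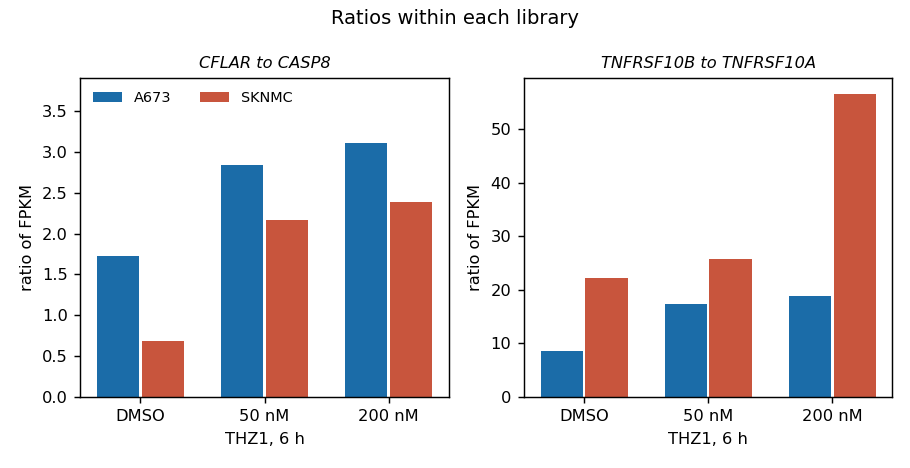
Ratio of the FPKM of 2 genes within 1 library (y axis, from 0, with its own range in each panel) by condition (x axis), A673 in blue and SKNMC in red, 1 library a bar. CFLAR to CASP8 is above its DMSO value in all 4 THZ1 libraries, from 0.685 to 2.38 at 200 nM in SKNMC and from 1.72 to 3.11 in A673.

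Counted together, 4 of the 9 members (FADD, RIPK1, CASP8 and TNFRSF10A) were at least 2-fold lower at 50 nM in A673, against 15.9% of all active genes. At 200 nM in A673 there were 5 (FADD, RIPK1, CASP8, FAS and TNFRSF10A), against 25.3%. In SKNMC, 2 members (FADD and CASP8) were at least 2-fold lower at 50 nM, against 15.8% of active genes, and 5 at 200 nM, against 27.3%, the same 5 as in A673. Both lines thus shared 2 such members at 50 nM and 5 at 200 nM, against 11.4% and 20.4% of genes active in both. Several values lay close to the threshold. Just past it were RIPK1 (-1.0) and CASP8 (-1.03) in A673 at 50 nM, and TNFRSF10A (-1.04) and RIPK1 (-1.07) in SKNMC at 200 nM. Just short of it were TRADD in SKNMC at 50 nM (-0.97) and XIAP in SKNMC at 200 nM (-0.99). No member was at least 2-fold higher in any of the 4 comparisons, where 0.343% and 0.126% of active genes were in A673 and 0.471% and 0.462% in SKNMC. Across the 9 members, log2 fold changes had a median of -0.83 and -1.25 in A673 and -0.82 and -1.04 in SKNMC, and the median over all active genes was -0.27 and -0.40 in A673 and -0.32 and -0.55 in SKNMC. Both doses of a line were compared with the same DMSO library. Because the members were chosen with earlier results of these data known, these counts and medians are descriptions and not a test of the pathway.

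The size of these counts depends on scaling. Dividing each library by the 75th percentile of genes active in both lines shifts the median of all active genes up by 0.21 and 0.30 in A673 and 0.24 and 0.45 in SKNMC, and dividing by the median of 83 ribosomal protein genes shifts it by -0.22 and -0.33 in A673 and -0.34 and -0.48 in SKNMC. FADD was between -3.36 and -2.19 in all 4 comparisons under 3 scalings and 2 other values added to FPKM. Under percentile scaling CASP8 was short of 2-fold in A673, at -0.80 and -0.93. RIPK1 (-0.79) and TNFRSF10A (-0.95) were then short of it in A673 at 50 nM, and RIPK1 (-0.62) and TNFRSF10A (-0.83) in SKNMC at 200 nM. CFLAR in SKNMC changed direction, with 0.13 becoming -0.25 at 50 nM under ribosomal protein scaling and -0.094 becoming 0.41 at 200 nM under percentile scaling. The other 34 of the 36 member values were negative under all of these settings. The median of all active genes was also negative in all 4 comparisons under each of these settings. A negative sign alone thus does not set the members apart from other genes.

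**Figure D3:**
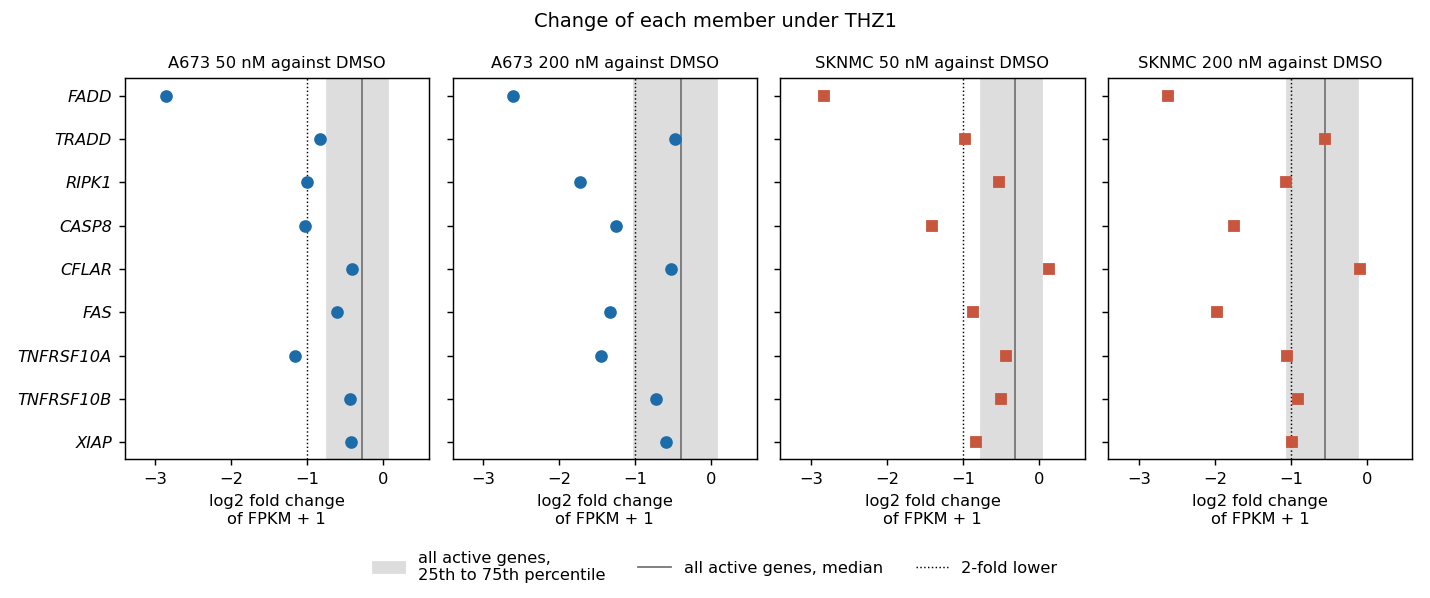
Log2 fold change of FPKM + 1 against DMSO (x axis) for the 9 members (y axis) in the 4 comparisons, with the grey band and line giving the 25th to 75th percentile and the median of all active genes, and the dotted line 2-fold lower. FADD sits between -2.85 and -2.61 in all 4 panels, far to the left of the band, and CFLAR lies inside or to the right of it.

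Comparing the doses directly, 7 of the 9 members were lower at 200 nM than at 50 nM in both lines, against 46.8% of genes. The other 2 were higher in both lines, against 29.5%. These shares are of the 9716 genes above 1 FPKM in both lines with DMSO and at 50 nM. The 2 that were higher are the adaptors FADD and TRADD. FADD at 200 nM was at 124% of its 50 nM level in A673 and 123% in SKNMC, and TRADD was at 138% and 149%. Differences of at least 2-fold were found for no member in A673, where 7.97% of active genes were at least 2-fold lower, and for 1 member in SKNMC, FAS with a log2 fold change of -1.10, where 9.09% were. No member was at least 2-fold higher at the high dose, against 0.134% and 0.362% of active genes. In A673 the largest decreases between the doses were those of RIPK1 (-0.73) and FAS (-0.72). In SKNMC FAS was followed by TNFRSF10A (-0.62) and RIPK1 (-0.54). Under percentile scaling CFLAR and XIAP in SKNMC turned slightly higher at 200 nM, at 0.019 and 0.071, and every other member kept its direction between the doses under each setting.

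FADD and TRADD are also the shortest of the 9 genes. They span 4.23 kb and 6.12 kb, and the other 7 span between 25.1 kb (FAS) and 60.6 kb (CFLAR). Gene span was looked at after these values were seen. Among the same 9716 genes, 43.1% of the 1845 genes under 10 kb were higher at 200 nM than at 50 nM in both lines. This share was 34.5% for 10 to 25 kb, 28.9% for 25 to 50 kb, 21.9% for 50 to 100 kb and 17.7% for longer genes. The share lower in both lines went the other way, from 30.1% under 10 kb to 60.6% over 100 kb. Across active genes, which share libraries and are not replicates, the Spearman correlation of the difference between the doses with gene span was -0.24 in A673 (10418 genes) and -0.15 in SKNMC (11052 genes). With spliced transcript length it was larger in size, at -0.32 and -0.18, and FADD and TRADD also have the shortest spliced transcripts of the 9, at 1708 and 1483 bases, so span and transcript length cannot be told apart for them. Against DMSO at 50 nM the correlation with span was 0.18 in both lines and that with mean FPKM 0.39 and 0.31. At least 2-fold lower at that dose were 23.0% of A673 genes and 22.5% of SKNMC genes under 10 kb, against 5.25% and 5.65% over 100 kb. For the high dose against DMSO, the span correlations shrank to -0.014 (A673) and 0.043 (SKNMC), and those with mean FPKM were 0.34 and 0.21. The matching high-dose shares were 27.1% (A673) and 28.8% (SKNMC) under 10 kb, against 17.2% and 16.9% over 100 kb. FADD was far below the median of its span class at 50 nM, which was -0.38 in A673 and -0.41 in SKNMC, and TRADD, at -0.83 and -0.97, was also below it.

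**Figure D4:**
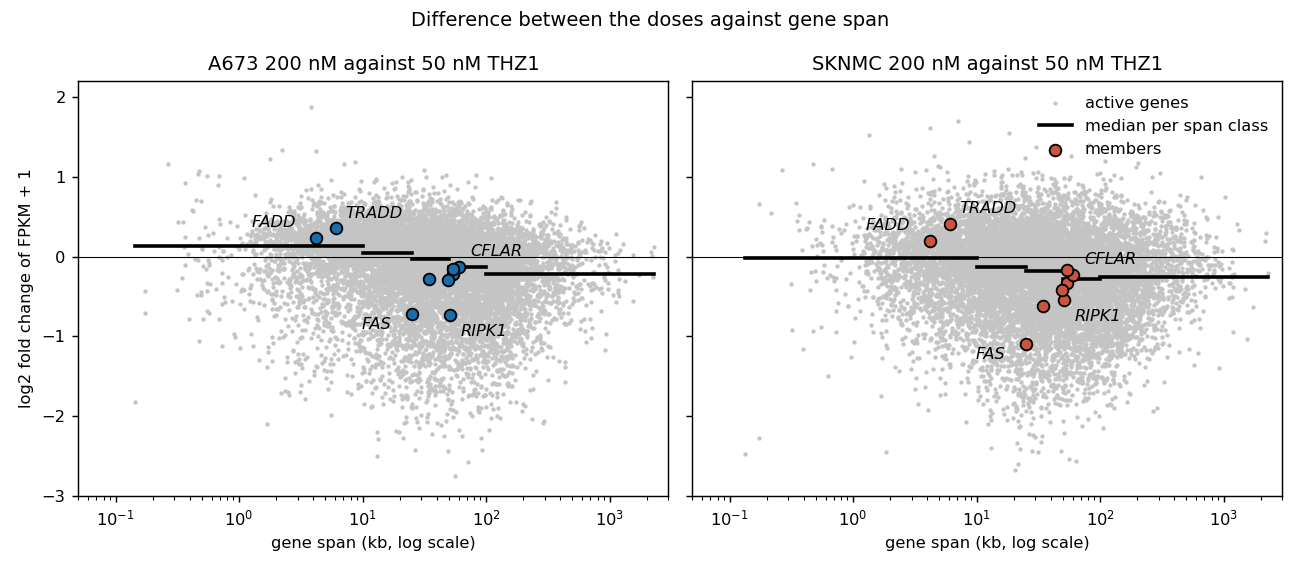
Log2 fold change of FPKM + 1 between 200 nM and 50 nM THZ1 (y axis) against gene span in kb (x axis, log scale) for active genes (grey), with the median of each of 5 span classes as a black line and the 9 members as coloured points, A673 left and SKNMC right. FADD and TRADD, at 4.23 and 6.12 kb, lie above 0 in both panels and the other 7 members lie below it.

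Other genes of the pathway, also chosen with earlier results of these data known, were taken as 46 companions grouped by role. Of these, 29 were active in A673 and 32 in SKNMC. At least 2-fold lower were 10 and 13 of them in A673, for the low and the high dose, against 15.9% and 25.3% of all active genes, and 5 and 11 in SKNMC, against 15.8% and 27.3%. As shares of the active companions these counts are 34.5% and 44.8% in A673 and 15.6% and 34.4% in SKNMC, so the SKNMC share at the low dose is that of all active genes. None was at least 2-fold higher at either dose. Their median log2 fold change was -0.36 and -0.54 in A673 and -0.41 and -0.77 in SKNMC.

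None of the 5 ligands was active in either line with DMSO. FASLG and TNFSF10, the ligands of FAS and of the TRAIL receptors, were both listed at 0 in A673 and at 0.00875 and 0.503 FPKM in SKNMC with DMSO. TNF, picked out after its values were seen, was at 0.269 FPKM with DMSO, 0.543 with the low dose and 1.2 with the high dose in A673, and at 0.0273, 0.105 and 0.245 FPKM in SKNMC.

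Among the other receptors, TNFRSF1A, the TNF receptor served by TRADD and RIPK1, had the lowest mean of the 4 log2 fold changes. It was at 37.2 FPKM with DMSO, 4.66 with the low dose and 2.39 with the high dose in A673, and at 35.4, 6.55 and 3.14 FPKM in SKNMC. Its log2 fold changes were -2.75 and -3.49 in A673 and -2.27 and -3.14 in SKNMC. FADD and TNFRSF1A were thus both more than 4-fold lower on that scale in all 4 comparisons, but TNFRSF1A was lower at the high dose than at the low dose in both lines, and FADD was not. TNFRSF21, the other receptor active in both lines, had -0.20 and -0.53 in A673 and 0.16 and -0.84 in SKNMC. TNFRSF10D, a decoy TRAIL receptor without a working death domain that was picked out after its values were seen, was at 25 FPKM in A673 and 0.0467 FPKM in SKNMC with DMSO, and at 32.4 and 32.5 FPKM in the A673 libraries with THZ1.

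In the group of 18 receptor complex and ubiquitin genes, 16 were active in each line, and 4 and 8 were at least 2-fold lower in A673 (25% and 50%, against 15.9% and 25.3% of all active genes) and 2 and 4 in SKNMC (12.5% and 25%, against 15.8% and 27.3%). TAB1, a partner of the kinase TAK1, had the lowest mean, with log2 fold changes of -2.03 and -1.57 in A673 and -2.30 and -1.78 in SKNMC. SHARPIN, a subunit of the linear ubiquitin ligase, had the highest, with -0.10 and 0.40 in A673 and -0.42 and 0.48 in SKNMC. Of the companions active in both lines with DMSO and with the low dose, SHARPIN and HTRA2 are the 2 shorter than 10 kb. Both were higher at the high dose than at the low dose in each line, as were 5 of the 25 longer ones. Over all genes active in both lines with DMSO and with the low dose, this share was 43.1% under 10 kb. For longer genes it lay between 34.5% (10 to 25 kb) and 17.7% (over 100 kb), and 2 short companions are too few for a pattern.

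Among the other caspases and BID, the highest mean was that of BID, which carries the signal of caspase-8 to mitochondria, with -0.0076 and 0.069 in A673 and -0.27 and -0.53 in SKNMC. In this group of 7, 3 and 3 genes were at least 2-fold lower in A673, of 6 active, against 15.9% and 25.3% of all active genes, and 1 and 3 in SKNMC, of 7 active, against 15.8% and 27.3%. Of 6 IAP antagonists and relatives, 4 were active in each line, and 2 and 1 were at least 2-fold lower in A673 and 1 and 2 in SKNMC, counts of so few genes that 1 gene makes 25% of the list, beside the same all-gene shares. DIABLO, the mitochondrial antagonist of XIAP, had -1.03 and -1.23 in A673 and -0.92 and -1.64 in SKNMC, so both XIAP and its antagonist were lower. BIRC5, which encodes survivin, had -0.40 and -0.097 in A673 and -0.27 and -0.11 in SKNMC. The necroptosis genes were low, with none of 3 active in A673 and MLKL alone, at 2.92 FPKM with DMSO, active in SKNMC.

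**Figure D5:**
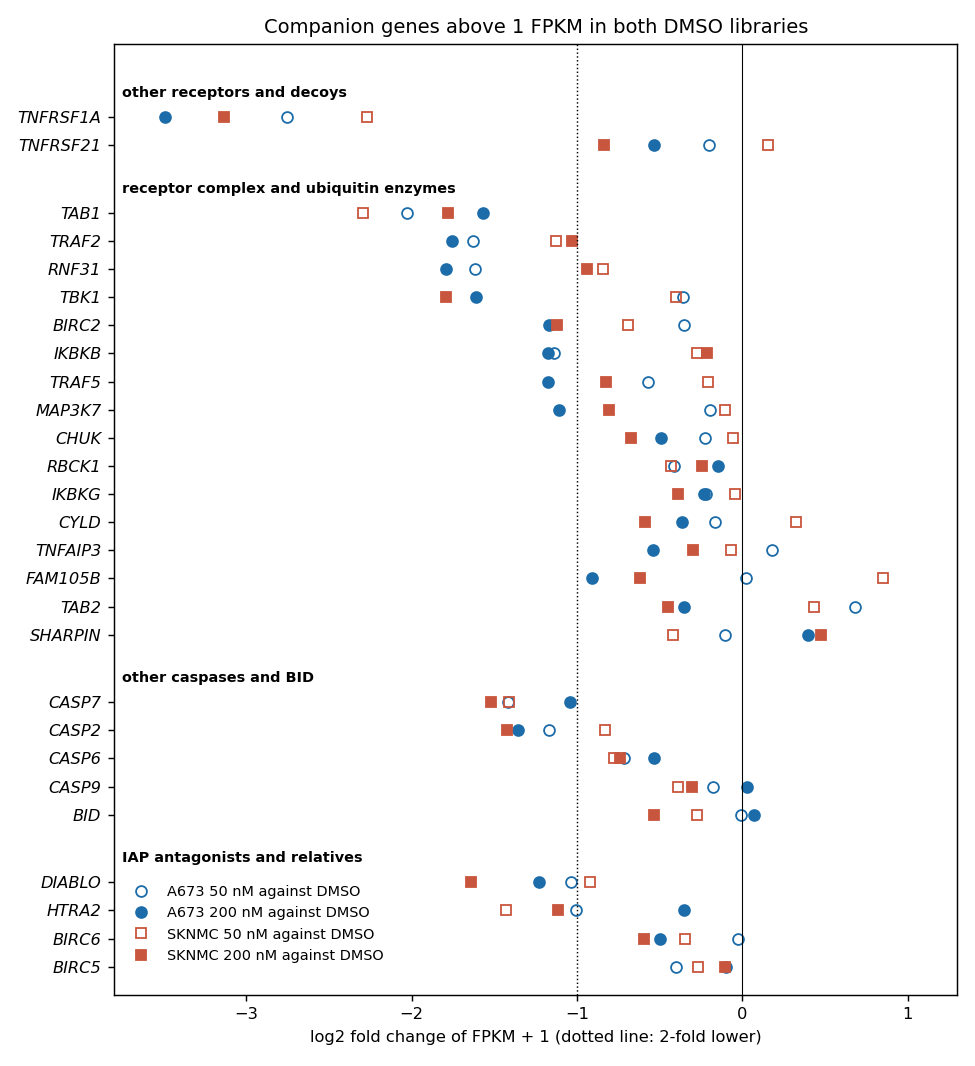
Log2 fold change of FPKM + 1 against DMSO (x axis) for companion genes above 1 FPKM in both DMSO libraries, all but 1 of them (y axis, by role), A673 as circles and SKNMC as squares, open at 50 nM and filled at 200 nM, with the dotted line at 2-fold lower. TNFRSF1A, between -3.49 and -2.27, and TAB1, between -2.30 and -1.57, are the furthest left, and SHARPIN is on the right at 200 nM with 0.40 and 0.48.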

How the data were processed

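RNA-seq values of 6 libraries were used, 1 for each combination of cell line (A673, SKNMC) and treatment (DMSO, 50 nM or 200 nM THZ1, 6 h), grouped by the sample titles. The authors prepared TruSeq libraries, aligned paired-end reads to hg19 with STAR and deposited FPKM values per Ensembl 75 gene. The methods name StringTie for the FPKM, while the submitters' processing notes name Cufflinks. The table also holds 4 columns of the authors' log2 fold changes, which were not used. It lists 20311 protein-coding and 7109 lincRNA genes. The title of the table speaks of averages, and each column was treated as 1 library. FPKM holds no read counts, and too few low values sat at any common ratio between libraries to give a depth, so no counting error can be stated.

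Log2 fold changes were computed over the whole table with 1 added to FPKM. Active genes were above 1 FPKM in the reference library of a comparison, or in either DMSO library for the comparison of the lines. With 1 library per condition no test was run. Members and lists were chosen with earlier results of these data known. Genes named are the 9 members, the companion of each role with the lowest and the highest mean log2 fold change among those active in both lines, and the 5 genes nearest to FADD. Others are said to be picked later. The values of 1 companion gene named by this rule are not reported here, though list counts and medians include it. Exon counts came from GENCODE 44 on GRCh37, where 95.2% of the listed genes were found. Promoters came from RefSeq on GRCh38.p14, and no coordinate was converted between builds. Alternatives were a pseudocount of 0.1 or none, 3 scalings, a 1.5-fold threshold, protein-coding genes alone, and active genes above 5 FPKM or unfiltered. The steps were tested on simulated data. Python 3.11.15, pandas 2.3.3 and scipy 1.17.1 were used.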

Additional observations from a re-analysis of the deposited data

Results flagged for a closer look

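The following were picked out because the 2 cell lines moved in opposite directions under the same dose. With 1 library per condition these differences were not tested. CFLAR at 50 nM had a log2 fold change of -0.41 in A673 and 0.13 in SKNMC, a difference of -0.54 (A673 minus SKNMC), and the directions were opposite under 2 of 3 scalings of the libraries. TNFRSF21 at 50 nM had -0.20 in A673 and 0.16 in SKNMC, a difference of -0.36, with opposite directions under 1 of the 3 scalings. BID at 200 nM had 0.069 in A673 and -0.53 in SKNMC, a difference of 0.60, with opposite directions under 2 of the 3.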

How the results depend on the processing

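No paired analysis was possible because each condition has a single library, so no replicate number pairs 2 samples of a group within a line, and leaving out a library would leave a condition empty. A fit that takes the 2 cell lines as replicates of each other was not run. FPKM gives no depth, so low members such as TNFRSF10A in SKNMC carry an unknown counting error. Of 315 member values recomputed, 308 stayed within 1.5-fold of the value above, none of those past 2-fold changed direction, and the other 7 were of FAS and TNFRSF10A in SKNMC with less added to FPKM. Under the alternatives the counts of members changed at least 2-fold differed by over 1.5 times as follows. At 50 nM against DMSO in A673 the 4 became 1 with 75th percentile scaling (10.5% of all active genes under that setting), and in SKNMC the 2 became 4 with a pseudocount of 0.1 or none (22.5% and 23.5%) and 5 with ribosomal protein scaling or a 1.5-fold threshold (28.5% and 33.5%). At 200 nM against DMSO in SKNMC the 5 became 3 with percentile scaling (13.4%). Between the doses in A673 the 0 became 1 with a pseudocount of 0.1 or none (11.9% and 12.5%) and 2 with a 1.5-fold threshold (19.1%), and in SKNMC the 1 became 2 under those 3 alternatives (13.5%, 14.1% and 23.8%) and 0 with percentile scaling or active genes above 5 FPKM (5.35% and 11.2%). For the companions, percentile scaling gave 5 and 8 of 29 in A673 against DMSO (10.5% and 16.7% of all active genes lower), 6 of 32 at 200 nM in SKNMC (13.4%) and 1 between the doses in A673 (6.50%). Ribosomal protein scaling gave 11 and 23 of 32 in SKNMC against DMSO (28.5% and 51.8%) and 4 between the doses in A673 (10.5%). A 1.5-fold threshold gave 14 and 21 in SKNMC against DMSO. The 14 were 13 lower and 1 higher (33.5% and 2.43% of all active genes), and the 21 were all lower (48.0%). Between the doses that threshold gave 8 in A673, 7 lower and 1 higher (19.1% and 2.32%). The SKNMC count between the doses was 15, 13 lower and 2 higher (23.8% and 3.66%). Between the untreated lines the count was 11, 7 lower and 4 higher (26.6% and 17.6%). A pseudocount of 0.1 or none gave 4 lower between the doses in A673 (11.9% and 12.5% of all active genes lower). In SKNMC it gave 7 lower and 1 higher (13.5% and 14.1% lower, 1.19% and 1.36% higher). The main setting had 2 lower of 28 between the doses in A673 (7.97%), and 3 lower and 1 higher of 31 in SKNMC (9.09% and 0.362%). Between the untreated lines the main setting had 3 lower and 2 higher of 33 (15.0% and 8.42%). The 3 scalings move all genes of a library together, and which is closest to RNA per cell was not tested.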
